A study of Mus musculus with 6 samples.

Results

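Voltage-gated sodium and calcium channel genes were followed in *Gsk3:Neurod6* mutant and control cortex at embryonic day 18, together with the genes of the HCN channels and of the sodium leak channel. Genes were taken by symbol: the *Scn* genes of sodium channel α and β subunits, *Cacna1*, *Cacna2d* and *Cacnb* genes of the calcium channel subunits, *Hcn* genes and *Nalcn*. This gave 32 measured genes, of 22180 genes in all.

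The series holds 3 mutant and 3 control embryos, with 1 Affymetrix Mouse Gene 2.0 ST array for each, whose short probes cover the exons of a gene. Mutants (GSK-3:Nex conditional mutant in the labels) lacked *Gsk3a* and had floxed *Gsk3b* together with *Neurod6*-Cre, a driver active in intermediate progenitors and newborn excitatory neurons of the dorsal telencephalon, while controls (GSK-3 alpha -/- beta loxp/loxp) had the same alleles and no Cre, so that *Gsk3a* was lacking in both groups. The tissue is described as dorsal cortex in the methods and as presumptive somatosensory cortex in the labels, and it also holds cells that the driver does not reach, such as interneurons, vessel cells and microglia. In such bulk tissue, fewer cells of a type and less RNA per cell cannot be told apart. Values are log2 expression values per transcript cluster, the combined probes of a gene, as deposited. The brightest cluster was taken per gene. Because probes differ in brightness, levels were compared between groups and not between genes, except against a background level that is only a rough guide.

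Sodium channels consist of a pore-forming α subunit, which opens on depolarization and carries the rising phase of the action potential, and of β subunits that tune its gating and act in cell adhesion. Calcium channels consist of a pore-forming α1 subunit that sets the current type, an extracellular α2δ subunit and a cytoplasmic β subunit, and they couple depolarization to transmitter release, firing patterns and transcription. In developing cortex, the set of α subunits changes as neurons leave the cycle, migrate and grow axons, and HCN and NALCN channels contribute to the resting potential.

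No channel gene passed an adjusted p of 0.05 in limma, and none reached the 1.5-fold change of the methods' criterion. Over all genes, 0.00451% passed the adjusted threshold and 0.117% reached that fold. At an unadjusted p under 0.05, 4 of the 32 genes were higher in mutants (*Scn9a*, *Scn8a*, *Scn1a* and *Cacna1b*) and none was lower. That is 12.5% of the channel genes, beside 7.32% of all genes in either direction and 3.51% in the higher direction. The mutant mean was the higher of the pair in 25 of 32 channel genes (78.1%), beside 49.7% of all genes, and the median log2 change was 0.07 over the channel genes and 0.00 over all genes. Apart from those 4 genes, the median over the other 28 was 0.05, with 21 of them higher. In 8 of the 32 genes the 3 mutant values all lay above the 3 control values, and in none did they all lie below. Across all genes, 13.3% had such separate groups in either direction and 6.34% with mutants higher. The 90 potassium channel genes, taken in the same way for comparison, had a median log2 change of 0.03. Of these, 57 (63.3%) had the higher mean in mutants, 11.1% had separate groups with mutants higher, and 6 were higher and 6 lower at an unadjusted p under 0.05.

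**Figure D1:**
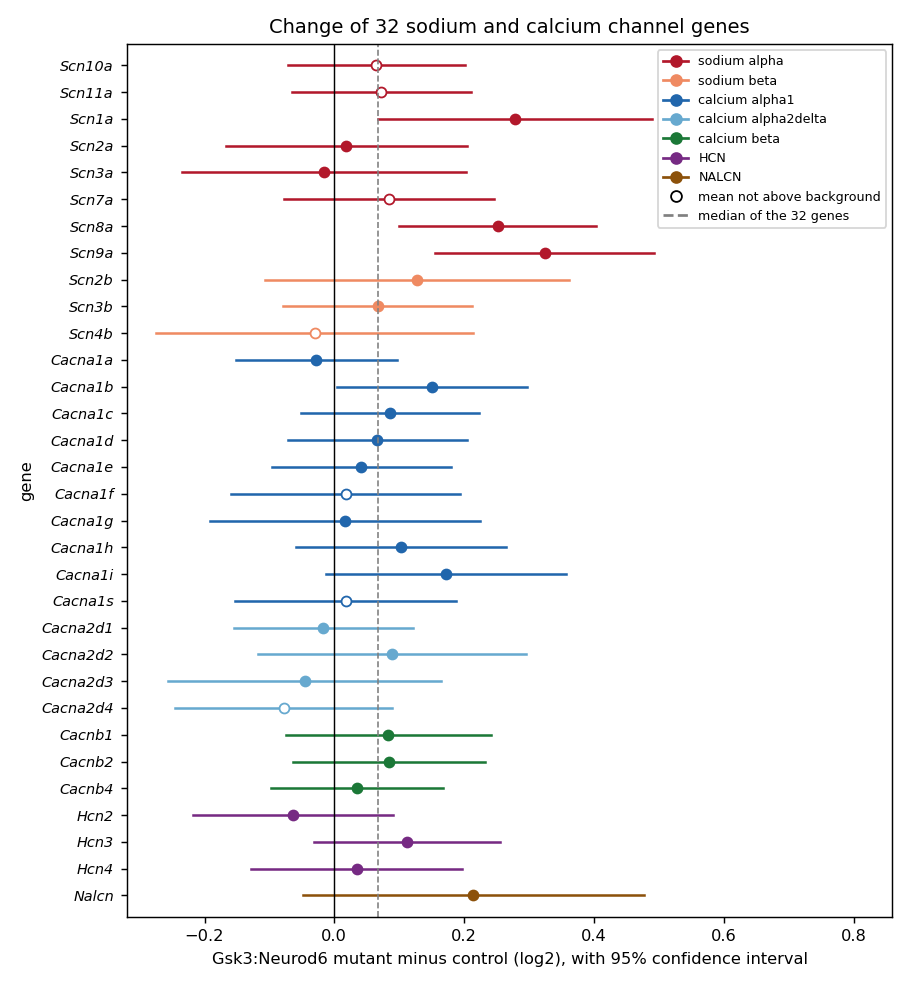
Log2 change (mutant minus control, x axis) of the 32 channel genes (y axis, colored by subunit family), with points for the fitted difference, lines for its 95% confidence interval from limma (n = 3 each) and open points for genes whose mean was not above the background level. The intervals of *Scn9a*, *Scn8a*, *Scn1a* and *Cacna1b* lie above 0, and those of the other 28 genes include 0.

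The comparison rests on limma's moderated test, two-sided, with Benjamini-Hochberg adjustment over all 22180 genes. Its p values measure the difference relative to how much embryos of a group vary, after each gene's variance is drawn toward that of all genes. An exact permutation test of 3 against 3 embryos cannot give a two-sided p below 0.1. The count of 4 fell to 2 (*Scn8a* and *Scn9a*) without mutant replicate 6, likewise without control replicate 2. Without mutant replicate 6, 23 genes had the higher mean in mutants and the median log2 change was 0.04, and without control replicate 2, these values were 22 and 0.05.

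As a check of the design, *Gsk3b* had 11.99, 12.06 and 12.14 in mutant replicates 5, 6 and 7, against 12.03, 12.001 and 11.99 in control replicates 2, 3 and 4. Its log2 change was 0.06 (adjusted p = 0.901 from limma). This value of the whole cluster does not single out the floxed exon and so does not check the deletion. The paper reports less of the floxed exon in mutants from probe-level array data, and less of the protein by Western blot. Probe-level values were not used here. *Neurod6*, whose locus carries the Cre, had 11.24, 11.32 and 11.21 in mutants, against 11.91, 11.81 and 11.84 in controls, a log2 change of -0.60 (adjusted p = 0.0977 from limma). All values below are given in this order of replicates. *Xist*, expressed from the inactive X chromosome in females, was at 11.89 in mutant replicate 6 and between 5.77 and 6.18 on the other 5 arrays. Mutant replicate 6 was also the highest array in 18 of the 32 channel genes, and control replicate 2 the lowest in 16. With *Xist* as a covariate the count of 4 was also 2, but since only that array had a high value, the covariate amounts to leaving the array out. Sex and the single embryo cannot be told apart here.

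Of the 32 channel genes, 25 had a mean above 7.35, the 95th percentile of 1432 olfactory, vomeronasal and taste receptor genes that serve here as a guide to background. The same held for 58.3% of all genes. *Scn7a*, *Scn10a*, *Scn11a*, *Scn4b*, *Cacna1f*, *Cacna1s* and *Cacna2d4* did not reach it. Among the 25 above this level, 8 had mutant values all above the control values (32%), beside 7.22% of the genes above it. When the dim genes were left out before the fit, 5 of the 25 were higher at an unadjusted p under 0.05, beside 4.76% of the genes then tested, and the smallest adjusted p was 0.147.

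Sodium channel α subunits held the largest differences among the channel genes. *Scn9a*, best known from sensory neurons of the peripheral nervous system, had 8.71, 8.79 and 8.78 in mutants, against 8.34, 8.57 and 8.41 in controls. The lowest mutant value lay above the highest control value, and the means differed by 0.32 on the log2 scale (standard error 0.07, 95% confidence interval 0.16 to 0.49, adjusted p = 0.495 from limma), a mutant over control ratio of 1.25. *Scn8a*, the α subunit of mature axon initial segments and nodes, had 9.67, 9.80 and 9.77 in mutants, against 9.51, 9.55 and 9.42 in controls. Here too the groups were separate, with a log2 change of 0.25 (standard error 0.07, 95% confidence interval 0.10 to 0.40, adjusted p = 0.495 from limma) and a ratio of 1.19. *Scn1a*, which in the postnatal brain serves above all inhibitory neurons, had 8.17, 8.50 and 8.40 in mutants, against 8.02, 8.07 and 8.14 in controls. The groups were separate by little, since mutant replicate 5 lay next to control replicate 4, and the log2 change was 0.28 (standard error 0.09, 95% confidence interval 0.07 to 0.49, adjusted p = 0.567 from limma), a ratio of 1.21.

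*Scn2a*, the α subunit of early excitatory axons, had 10.40, 10.57 and 10.47 in mutants, against 10.36, 10.59 and 10.43 in controls. The arrays of both groups covered the same range, and the log2 change was 0.02 (95% confidence interval -0.17 to 0.20). *Scn3a*, the α subunit typical of embryonic brain, had 10.23, 10.44 and 10.33 in mutants, against 10.16, 10.43 and 10.44 in controls. These groups also overlapped, with a log2 change of -0.02 (95% confidence interval -0.24 to 0.20). Taken within each embryo, the difference between *Scn1a*, *Scn8a* or *Scn9a* and *Scn2a* or *Scn3a* changed by 0.23 (*Scn8a* over *Scn2a*) to 0.34 (*Scn9a* over *Scn3a*) on the log2 scale. These genes were chosen after their values were seen and the pairs share genes and embryos, so this is a description with no test. *Scn10a* and *Scn11a*, of peripheral sensory neurons, and *Scn7a*, a sodium-sensing relative of the channels, were not above background and changed by 0.06 to 0.08, with overlapping groups. The α subunits resemble each other in sequence, and the sources used here do not say how well the probes tell them apart.

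Of these genes, 5 lie in a row of neighbors on chromosome 2. In the order of the RefSeq gene table (GRCm38.p6), the protein-coding genes are *Scn3a*, *Scn2a*, *Csrnp3*, *Galnt3*, *Ttc21b*, *Scn1a*, *Scn9a* and *Scn7a*. The log2 changes along this row were -0.02, 0.02, -0.15, 0.08, 0.02, 0.28, 0.32 and 0.08. Both genes of the row at an unadjusted p under 0.05 stand side by side, while *Scn8a* lies on chromosome 15. *Csrnp3*, a nuclear protein gene, was the 1 neighbor whose groups were separate with mutants lower (10.57, 10.74 and 10.76 in mutants, against 10.76, 10.92 and 10.85 in controls, adjusted p = 0.724 from limma). They were barely separate, with 10.762 as the highest mutant value and 10.765 as the lowest control value. A noncoding gene, *Gm13629*, overlaps *Scn9a* in the same table, and a cluster that names both was left out.

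**Figure D2:**
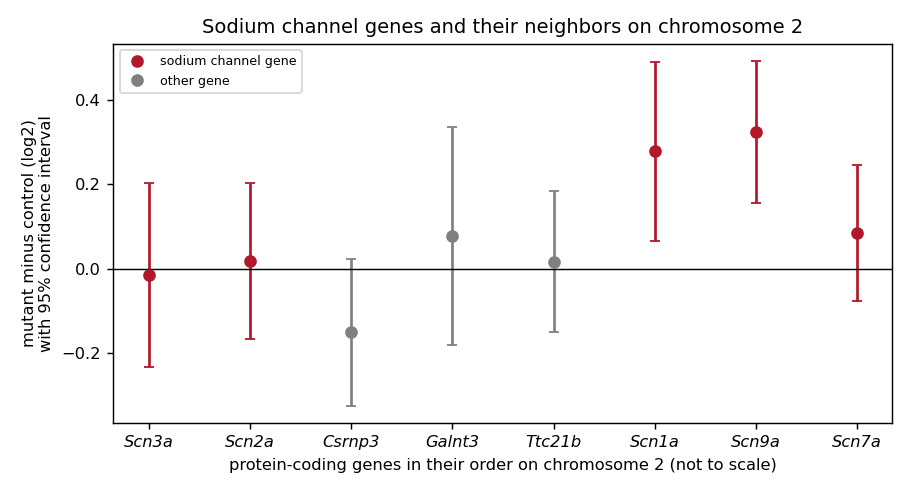
Log2 change (mutant minus control, y axis) of the protein-coding genes in their order on chromosome 2 (x axis, not to scale), with points for the fitted difference and bars for its 95% confidence interval from limma (n = 3 each). *Scn1a* (0.28) and *Scn9a* (0.32) have intervals above 0, and *Scn3a* and *Scn2a* at the other end of the row lie at -0.02 and 0.02.

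Sodium channel β subunits showed no separate groups. *Scn2b*, which is linked to the α subunit by a disulfide bond, had 7.76, 7.996 and 7.59 in mutants, against 7.70, 7.61 and 7.66 in controls. Only mutant replicates 5 and 6 lay above all controls, and the log2 change of 0.13 had a 95% confidence interval of -0.11 to 0.36. It was 0.02 without mutant replicate 6, and 0.22 without mutant replicate 7, where the unadjusted p was under 0.05. *Scn3b*, a β subunit of early neurons that is not covalently bound, had 11.59, 11.67 and 11.61 in mutants, against 11.48, 11.62 and 11.58 in controls (log2 change 0.07, 95% confidence interval -0.08 to 0.21). *Scn4b*, the β subunit tied to resurgent sodium current, had 6.36, 6.28 and 6.08 in mutants, against 6.10, 6.44 and 6.26 in controls. Its values overlapped below the background level, with a log2 change of -0.03.

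Of the 10 calcium channel α1 genes, 9 had the higher mean in mutants (90%, beside 49.7% of all genes). In 4 the groups were separate with mutants higher (40%, beside 6.34% of all genes), though by narrow gaps in *Cacna1c*, *Cacna1d* and *Cacna1i*. *Cacna1b*, the N-type pore of presynaptic terminals that also acts in neuronal migration, had 10.42, 10.52 and 10.43 in mutants, against 10.24, 10.30 and 10.38 in controls. Its log2 change was 0.15 (standard error 0.06, 95% confidence interval 0.00 to 0.30, adjusted p = 0.674 from limma), a ratio of 1.11. *Cacna1a*, the P/Q-type pore that triggers transmitter release at most mature central synapses, had 9.34, 9.34 and 9.35 in mutants, against 9.40, 9.34 and 9.37 in controls. These were the most even values of any channel gene, with a within-group SD of 0.02, and the log2 change was -0.03 (95% confidence interval -0.15 to 0.10). *Cacna1e*, the R-type pore, had 10.26, 10.34 and 10.36 in mutants, against 10.33, 10.26 and 10.24 in controls, overlapping groups with a log2 change of 0.04.

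The L-type pores, which couple depolarization to transcription, had small differences. *Cacna1c* had 10.75, 10.76 and 10.80 in mutants, against 10.62, 10.74 and 10.70 in controls. The groups were separate by less than 0.02 between mutant replicate 5 and control replicate 3, and the log2 change was 0.09 (adjusted p = 0.814 from limma). *Cacna1d* had 9.56, 9.57 and 9.67 in mutants, against 9.56, 9.51 and 9.54 in controls. Its groups were also separate, by less than 0.01, with a log2 change of 0.07 (adjusted p = 0.867 from limma). *Cacna1f* of the retina and *Cacna1s* of skeletal muscle were not above background and changed by 0.02 each.

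The T-type pores open at low voltage and shape burst firing. *Cacna1i* had 8.50, 8.69 and 8.46 in mutants, against 8.30, 8.38 and 8.46 in controls. The groups were separate by less than 0.01 between mutant replicate 7 and control replicate 4, and the log2 change of 0.17 reached from -0.01 to 0.36 in its 95% confidence interval (adjusted p = 0.715 from limma). It was the fifth channel gene at an unadjusted p under 0.05 when dim genes were left out. *Cacna1h* had 10.15, 10.36 and 10.26 in mutants, against 10.18, 10.18 and 10.10 in controls, where mutant replicate 5 lay among the controls (log2 change 0.10). *Cacna1g* had 8.79, 8.97 and 8.90 in mutants, against 8.83, 8.74 and 9.04 in controls. Its groups overlapped in full, with a log2 change of 0.02.

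**Figure D3:**
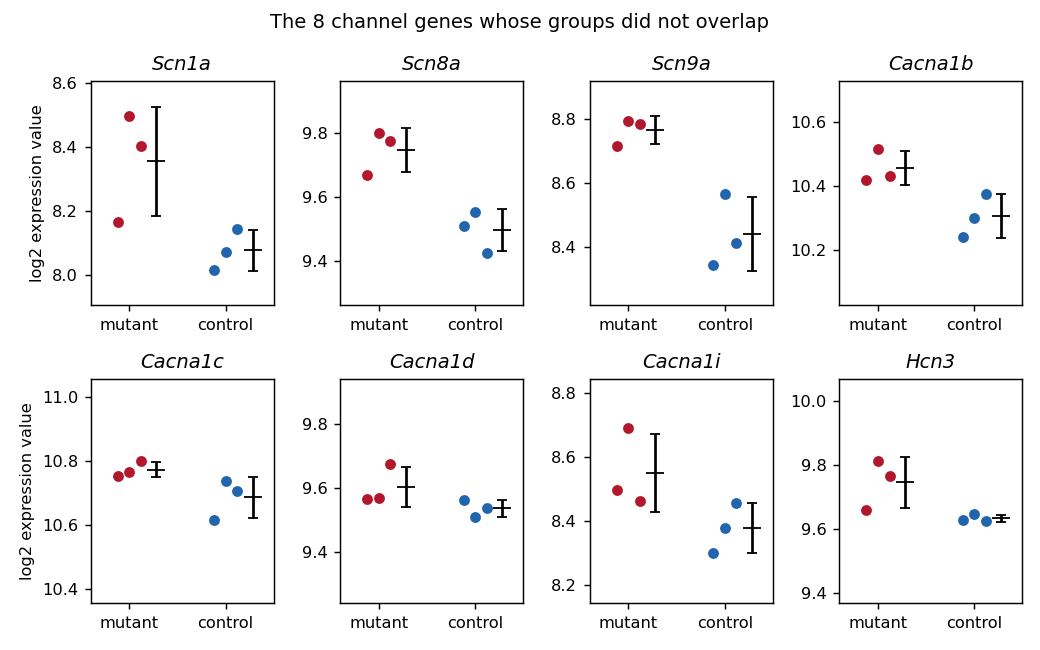
Log2 expression values (y axis) of the 8 channel genes with separate groups, with points for single embryos (mutants left, controls right), crossbars for the mean and error bars for the SD (n = 3 each). Every panel spans the same log2 range. The gap between the groups is widest for *Scn9a* (lowest mutant 8.71, highest control 8.57) and under 0.01 for *Cacna1d* and *Cacna1i*.

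The auxiliary calcium channel subunits had no separate groups. Among the α2δ genes, which carry channels to the membrane and bind gabapentin in the case of *Cacna2d1* and *Cacna2d2*, 3 of 4 had the lower mean in mutants. *Cacna2d1* had 10.45, 10.53 and 10.47 in mutants, against 10.47, 10.56 and 10.47 in controls (log2 change -0.02, 95% confidence interval -0.16 to 0.12). *Cacna2d2* had 9.14, 9.18 and 9.22 in mutants, against 8.90, 9.21 and 9.17 in controls. Its log2 change of 0.09 came with control replicate 2 far below the other 2 controls, and was -0.01 without that array. *Cacna2d3* had 9.61, 9.50 and 9.68 in mutants, against 9.48, 9.79 and 9.65 in controls (log2 change -0.05). *Cacna2d4*, of the retina, was not above background and changed by -0.08.

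All 3 measured β genes, whose products help the pore to the membrane and set its gating, had the higher mean in mutants, with overlapping groups. *Cacnb1* had 9.69, 9.85 and 9.71 in mutants, against 9.60, 9.69 and 9.71 in controls (log2 change 0.08). *Cacnb2* had 8.62, 8.64 and 8.60 in mutants, against 8.50, 8.63 and 8.47 in controls (log2 change 0.08). *Cacnb4* had 9.75, 9.85 and 9.81 in mutants, against 9.74, 9.77 and 9.80 in controls (log2 change 0.03). A dimmer second cluster changed by 0.08 for *Cacnb2* and by -0.10 for *Cacnb4*, so the direction of *Cacnb4* differed between its 2 clusters.

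Among the HCN genes, whose channels open on hyperpolarization, *Hcn3* had 9.66, 9.81 and 9.77 in mutants, against 9.63, 9.65 and 9.63 in controls. The groups were separate by little, because the controls lay within an SD of 0.01 and mutant replicate 5 was just above them (log2 change 0.11, adjusted p = 0.755 from limma). *Hcn2*, a main HCN gene of the adult brain, had 8.05, 8.14 and 8.08 in mutants, against 8.07, 8.25 and 8.15 in controls (log2 change -0.06). *Hcn4*, the pacemaker channel gene of the heart that also acts in thalamus, had 8.79, 8.92 and 8.73 in mutants, against 8.71, 8.79 and 8.83 in controls (log2 change 0.03). Both overlapped between groups. *Nalcn*, the sodium leak channel that sets resting excitability, had 8.22, 8.34 and 8.24 in mutants, against 7.80, 8.08 and 8.27 in controls. The spread of its controls was the widest in the set (SD 0.24), control replicate 4 lay within the mutant range, and the log2 change of 0.21 had a 95% confidence interval of -0.05 to 0.48 (adjusted p = 0.742 from limma). The change was 0.09 without control replicate 2, and 0.32 without control replicate 4, where the unadjusted p was under 0.05.

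**Figure D4:**
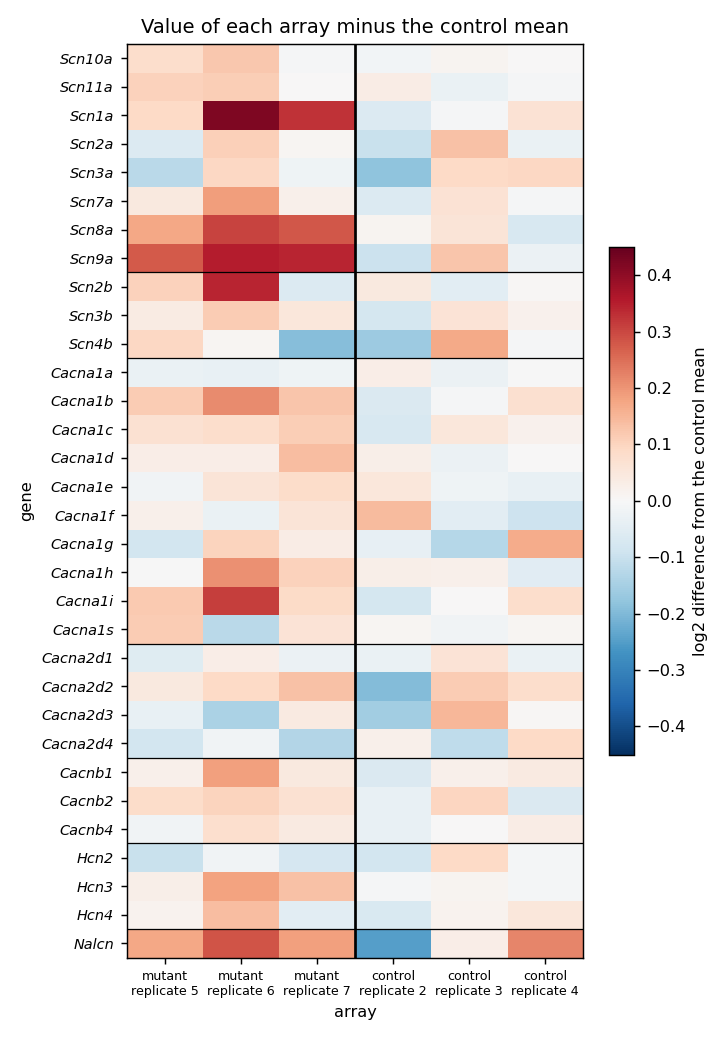
Value of each array minus the control mean (color, log2) for the 32 channel genes (rows, in subunit families) on the 3 mutant arrays (left) and the 3 control arrays (right). The median over the genes was 0.03, 0.10 and 0.05 on mutant replicates 5, 6 and 7, and -0.05, 0.02 and 0.00 on control replicates 2, 3 and 4.

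Across arrays, the channel genes of mutant replicate 6 stood highest and those of control replicate 2 lowest. The median channel gene lay 0.10 above its control mean on mutant replicate 6, and 26 of 32 genes were above. On mutant replicates 5 and 7 the median was 0.03 and 0.05, with 21 and 23 genes above. Control replicate 2 had a median of -0.05. Over all genes, the same medians lay between -0.01 and 0.01 on every array. The spread within groups was close to that of other genes, with a median SD of 0.08 over the channel genes and 0.09 over all genes.

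The start regions of the 4 genes at an unadjusted p under 0.05 are shown here as examples, although none of the 4 passed an adjusted p of 0.05. Each is the 250 bases before an annotated start in RefSeq (GRCm38.p6), 5′ to 3′ on the strand of the gene, with E-boxes (CANNTG) and GC boxes (GGGCGG) in capitals. *Scn9a* is at chr2:66634963-66635212 (minus strand), *Scn8a* at chr15:100870395-100870644 (plus strand, the more upstream of 2 starts), *Scn1a* at chr2:66440838-66441087 (minus strand) and *Cacna1b* at chr2:24763153-24763402 (minus strand).
Scn9a: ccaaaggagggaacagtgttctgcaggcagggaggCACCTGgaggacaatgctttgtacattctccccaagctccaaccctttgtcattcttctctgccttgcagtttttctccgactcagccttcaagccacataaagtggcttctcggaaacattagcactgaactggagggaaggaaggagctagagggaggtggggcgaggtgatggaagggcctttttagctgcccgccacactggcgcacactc
Scn8a: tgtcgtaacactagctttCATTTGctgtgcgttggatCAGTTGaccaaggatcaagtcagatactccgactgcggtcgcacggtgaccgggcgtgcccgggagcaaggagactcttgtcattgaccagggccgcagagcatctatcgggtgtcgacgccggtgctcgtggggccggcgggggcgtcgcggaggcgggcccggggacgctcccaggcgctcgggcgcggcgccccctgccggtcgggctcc
Scn1a: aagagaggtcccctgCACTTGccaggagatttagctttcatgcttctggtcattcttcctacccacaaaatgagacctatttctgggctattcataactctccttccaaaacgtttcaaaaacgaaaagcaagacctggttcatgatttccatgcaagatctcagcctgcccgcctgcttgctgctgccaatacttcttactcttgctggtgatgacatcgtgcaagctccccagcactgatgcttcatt
Cacna1b: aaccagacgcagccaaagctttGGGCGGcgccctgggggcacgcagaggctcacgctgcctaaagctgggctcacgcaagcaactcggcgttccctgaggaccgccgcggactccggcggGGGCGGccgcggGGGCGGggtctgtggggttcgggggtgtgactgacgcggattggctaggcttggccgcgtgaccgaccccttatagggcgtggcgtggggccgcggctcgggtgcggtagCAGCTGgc

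The 4 windows differed in base composition. That of *Cacna1b* was 72% G and C with 29 CpG sites, that of *Scn8a* 68% with 30 CpG sites, that of *Scn9a* 54.4% with 5 and that of *Scn1a* 46.8% with 4. They held 1 E-box (*Scn9a*), 2 (*Scn8a*), 1 (*Scn1a*) and 1 (*Cacna1b*), and 3 GC boxes lay in *Cacna1b* alone. The window of the other *Scn8a* start (chr15:100936021-100936270, plus strand), not shown, was 53.2% G and C with 9 CpG sites and held 0 E-boxes. Neither a TATA box (TATAAA) nor a TCF/LEF core (CTTTGA), the letters bound by the transcription factors of Wnt signaling, was found in these 4 windows on either strand, and no motif overlapped another. Of the 32 channel genes, 25 matched the promoter table, with 34 starts. Among these, 64.7% held an E-box, beside 66.2% of the 32851 promoters in the table, and 41.2% a GC box, beside 32.7%. A TATA box stood in 5.88%, beside 12.4%, and a TCF/LEF core in 11.8%, beside 13.8%. A match of letters is no evidence of binding, and the lack of one says nothing about a factor.

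Partners of the channels were followed in 5 lists, and no member passed an adjusted p of 0.05 in limma. Of 14 measured sodium channel partners, 9 had the higher mean in mutants (median log2 change 0.05), with 2 higher and 0 lower at an unadjusted p under 0.05, beside 3.51% and 3.81% of all genes. *Sptbn4*, the spectrin that anchors sodium channels at the initial segment, had 7.71, 7.83 and 7.75 in mutants, against 7.39, 7.51 and 7.57 in controls (log2 change 0.28, adjusted p = 0.495 from limma). *Fgf14*, a cytoplasmic binding partner of α subunits, had 10.43, 10.57 and 10.33 in mutants, against 10.08, 10.25 and 10.20 in controls (log2 change 0.26, adjusted p = 0.539 from limma). Both had separate groups, as did 6 of the 14 in all with mutants higher (42.9%) and 1 with mutants lower, beside 6.34% and 6.93% of all genes. The other 4 with mutants higher were *Fgf12* (log2 change 0.16), *Sptbn1* (0.10), *Ank3* (0.07) and *Ank2* (0.05), and the 1 with mutants lower was *Tnr* (-0.16). None of these was at an unadjusted p under 0.05. The groups were barely separate for *Ank3* (lowest mutant 12.1051, highest control 12.1048) and *Fgf12* (10.0282 and 10.0254).

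Of 24 calcium channel partners, 15 had the higher mean in mutants (median 0.03). At an unadjusted p under 0.05, 1 was higher and 1 lower, 8.33% together and close to the 7.32% of all genes. The 1 higher gene, *Dpp6*, was placed in this list but is known as an auxiliary subunit of A-type potassium channels. It had 9.83, 9.87 and 9.84 in mutants, against 9.41, 9.61 and 9.66 in controls (log2 change 0.29, adjusted p = 0.495 from limma). *Cabp1*, a calmodulin-like regulator of calcium channels, had 8.21, 8.23 and 8.24 in mutants, against 8.35, 8.35 and 8.36 in controls (log2 change -0.13, adjusted p = 0.670 from limma). Both had separate groups, in opposite directions. In all, groups were separate in 2 of the 24 with mutants higher and in 3 with mutants lower. That is 20.8% together, beside 13.3% of all genes.

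In the other partner lists, shares of separate groups stand beside 13.3% of all genes in either direction. Only 4 of 9 partners of HCN and NALCN were measured, all 4 with the higher mean in mutants, and the smallest p values were those of *Pex5l* (7.66, 7.53 and 7.62 in mutants, against 7.53, 7.55 and 7.45 in controls, log2 change 0.09, adjusted p = 0.811 from limma), which guides HCN channels to dendrites, and of *Kcne2* (6.55, 6.39 and 6.44 in mutants, against 6.47, 6.38 and 6.26 in controls, log2 change 0.09, adjusted p = 0.853 from limma), which was not above background. Of 25 genes of calcium release, extrusion and sensing, 15 had the higher mean in mutants (median 0.03). Groups were separate in 3 with mutants higher and in 3 with mutants lower (24% together). At an unadjusted p under 0.05, 0 were higher and 1 lower (4%, beside 7.32% of all genes). That gene, *Ryr1*, an intracellular calcium release channel, had 8.71, 8.97 and 9.01 in mutants, against 9.29, 9.04 and 9.10 in controls (log2 change -0.25, adjusted p = 0.665 from limma). *Camk4*, a nuclear calcium/calmodulin kinase, had 9.25, 9.31 and 9.29 in mutants, against 8.88, 9.15 and 9.20 in controls (log2 change 0.21, adjusted p = 0.684 from limma). Of 8 transcriptional regulators of channel genes, 4 had the higher mean in mutants (median -0.01). Groups were separate in 2 of them (25%), *Rcor1* and *Mef2a* (log2 change 0.07), both with mutants higher. Only *Rcor1* was at an unadjusted p under 0.05 (12.5% of the list, beside 7.32% of all genes). *Rcor1*, a corepressor that works with REST, had 9.97, 10.22 and 10.06 in mutants, against 9.84, 9.93 and 9.94 in controls (log2 change 0.18, adjusted p = 0.674 from limma). *Sp1*, a factor that binds GC boxes, had 8.21, 8.36 and 8.31 in mutants, against 8.50, 8.35 and 8.32 in controls (log2 change -0.10, adjusted p = 0.830 from limma).

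Markers of cell types moved in part with the groups. All 7 markers of intermediate progenitors had the lower mean in mutants, 4 of them at an unadjusted p under 0.05, beside 3.81% of all genes (among the 4 were *Neurog2*, log2 change -0.29, *Neurod4*, -0.26, and *Hes6*, -0.21). Their mean per array was 8.81 to 8.95 in mutants and 9.03 to 9.13 in controls, with no overlap. The 11 excitatory neuron markers had a mean of 10.30 to 10.44 per array in mutants and 10.41 to 10.46 in controls. Without *Neurod6*, whose locus carries the Cre, the other 10 had 10.21 to 10.35 in mutants and 10.27 to 10.32 in controls. Of these 10, 3 had the higher mean in mutants and 7 the lower (median log2 change -0.03). The 10 interneuron markers had 9.22 to 9.30 in mutants and 9.18 to 9.28 in controls, with 8 higher and 2 lower in mutants (median log2 change 0.02). The 7 oligodendrocyte lineage markers, of which 5 were above background, had 7.999 to 8.042 in mutants and 7.85 to 7.98 in controls. These means were separate by little (lowest mutant 7.999, highest control 7.981). Of the 7, 5 had the higher mean in mutants and 2 the lower, with a median log2 change of 0.04. Only *Olig1* (0.25) was at an unadjusted p under 0.05 (14.3%, beside 7.32% of all genes). The 8 astrocyte markers, of which 5 were above background, had 8.07 to 8.16 in mutants and 7.98 to 8.10 in controls, and 6 of the 8 had the higher mean in mutants, with a median log2 change of 0.12 beside 0.07 over the channel genes. The 5 above background were *Apoe* (0.26), *Gfap* (0.25), *Aldh1l1* (0.16), *Slc1a2* (0.07) and *Aldoc* (-0.02). At an unadjusted p under 0.05, 2 of the 8 were higher (*Apoe* and *Aqp4*, 0.25) and 1 lower (*Gjb6*, -0.29, with separate groups). That is 37.5%, beside 7.32% of all genes, and *Aqp4* and *Gjb6* were not above background. The 8 radial glia markers had 10.41 to 10.48 in mutants and 10.43 to 10.52 in controls. Their directions were split, with 4 higher and 4 lower in mutants (median log2 change 0.01). At an unadjusted p under 0.05, 0 were higher and 2 lower (25%, beside 3.81% of all genes lower). These were *Hes1* (-0.21) and *Pax6* (-0.20), with separate groups, while the largest change upward was that of *Slc1a3* (0.12). Medians over endothelial cell and pericyte (10), microglia (8) and Cajal-Retzius cell (5) markers changed by -0.03, 0.00 and 0.04, and the 2 measured red blood cell markers were not above background. No marker passed an adjusted p of 0.05. The part of cell composition in the channel values was not tested.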

How the data were processed

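RNA of 3 *Gsk3:Neurod6* mutant and 3 control cortices was hybridized to Affymetrix Mouse Gene 2.0 ST arrays, 1 per embryo. The authors deposited log2 expression values for 41345 transcript clusters, for which the submitters' processing notes name Partek (6.12.0712). The methods of background correction, normalization and probe summary were "not given in the sources used here", as was the genome build of the array. The quartiles of the arrays lay close together (lower 6.17 to 6.24, upper 8.90 to 8.96), so no further normalization was applied. Clusters naming several genes (1820) or none (16004) in the platform annotation were left out, and of 1082 genes with over 1 cluster the brightest was taken. A cluster value averages over exons and hides a change of a single exon.

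Differences (mutant minus control) were fitted with limma (version 3.58.1, R 4.3.3; lmFit, then eBayes) over 22180 genes, two-sided, with Benjamini-Hochberg adjustment and no covariate, since the embryos came from 2 litters and it is not stated which came from which. The embryos are separate animals, littermates were treated as independent, and genetic backgrounds were mixed. No pair of arrays was a duplicate (root mean square difference 0.17 to 0.22). The test was also run on simulated independent values without litter, sex or array effects, and no conclusion is drawn from that run. Array values are printed for channel genes at an unadjusted p under 0.05, with separate groups or among the main brain subunits, and for the 2 genes of smallest p in each partner list. *Csrnp3*, the differences between sodium channel genes, the other partners with separate groups and the marker genes named fall outside this rule and were chosen after their values were seen. Some genes of these families are not reported here. The channel genes, gene lists and comparisons were chosen with earlier results of these data known. Alternatives were quantile normalization, median centring, a fit without dim genes, averaged clusters per gene, a robust prior with intensity trend, weights for arrays, a test without moderation, an *Xist* covariate, and the loss of each array in turn.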

Additional observations from a re-analysis of the deposited data

How the results depend on the processing

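Under all 14 alternatives, no channel gene passed an adjusted p of 0.05 (lowest 0.147) or changed at least 1.5-fold, and the median log2 change stayed between 0.04 and 0.08. When 1 array was left out, a choice added after seeing the data, 22 to 27 genes had the higher mean in mutants, 9 to 12 had separate groups with mutants higher and 0 to 2 with mutants lower, where 2 against 3 values separate more easily (10.3% to 13.4% of all genes with mutants higher). The count at an unadjusted p under 0.05 was 2 with *Xist* as a covariate (much the same as leaving out mutant replicate 6), 2 to 5 when an array was left out, and 3 to 6 under the other settings. *Scn8a* and *Scn9a* were in it under all 14 (log2 change 0.22 to 0.29 and 0.28 to 0.39, adjusted p 0.195 to 0.710 and 0.147 to 0.710), *Scn1a* under 9 (0.20 to 0.37, adjusted p 0.262 to 0.810) and *Cacna1b* under 6 (0.12 to 0.19, adjusted p 0.409 to 0.852). *Cacna1i* joined under 4, *Hcn3* under 3, and *Scn2b* and *Nalcn* under 1 each. Over all genes, the count past the adjusted threshold was 1, but 9 without dim genes, 27 when the prior followed an intensity trend and was made robust, 2 with quantile normalization and 0 with the unmoderated test, where 1538 genes had an unadjusted p under 0.05.

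Changes of sign were seen in 11 genes. With *Xist* as a covariate the log2 change was -0.026 for *Scn2a*, -0.029 for *Cacna1g*, 0.0077 for *Cacna2d3* and -0.016 for *Hcn4*. It was -0.017 for *Hcn4* with array weights and -0.032 for *Cacnb4* as the mean of its clusters. Leaving out 1 array gave -0.032 to 0.084 (*Scn2a*), -0.11 to 0.036 (*Scn3a*), -0.11 to 0.054 (*Scn4b*), -0.030 to 0.089 (*Cacna1f*), -0.048 to 0.10 (*Cacna1g*), -0.030 to 0.088 (*Cacna1s*), -0.041 to 0.013 (*Cacna2d1*), -0.0084 to 0.15 (*Cacna2d2*), -0.12 to 0.029 (*Cacna2d3*) and -0.016 to 0.076 (*Hcn4*). The cause was not tested. Leaving out dim genes gives no value for the 7 dim channel genes. No paired analysis was possible because the groups share no replicate numbers and the litter of each embryo is not stated.

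The number of arrays limits the precision. With a median standard error of 0.07 on the log2 scale, differences of the size seen in most channel genes were not detectable, which does not show that they are absent.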
